A study of Mus musculus with 36 samples.

Results

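Expression of adipocyte genes was followed in quadriceps muscle of BSG mice, which lack beta-sarcoglycan, and GSG mice, which lack gamma-sarcoglycan. The genes were picked by symbol in the array annotation from a list of 10 (Adipoq, Lep, Pparg, Cebpa, Fabp4, Lpl, Scd1, Plin2, Cfd and Retn). Of these, 8 were measured, each by 1 of the 8129 oligonucleotides of the array. No oligonucleotide was matched to Cfd or Retn, and they are not analysed here. Muscle was taken at 1 and 2.5 weeks, at every even age from 4 to 14 weeks and at 20 weeks, from 2 mice per age and strain. RNA of the 36 mice was compared on 36 arrays of 2 colours, which form 4 loops, 2 of each strain. Each loop holds 9 mice, 1 of each age. The first 8 arrays of a loop compare an age, labelled with Cy5, with the age before it, labelled with Cy3, and the closing array compares 1 week with 20 weeks. Arrays compare mice of 1 strain only, so neither the missing sarcoglycan nor a difference in level between the strains can be read from them, and ratios do not show whether a marker of muscle or fat is present. Wild-type arrays are not analysed here, and growth and disease cannot be told apart in an age course of a single strain.

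White adipocytes store fat as triglyceride in a lipid droplet. Pparg and Cebpa encode the nuclear receptor and the C/EBP transcription factor that drive their differentiation. The mature cell secretes adiponectin (Adipoq) and leptin (Lep) and carries genes for fatty acid uptake, transport and storage. In dystrophic muscle, lost fibres can be replaced by fibrous and fatty tissue, and muscle holds precursor cells that can become adipocytes. Of the genes described here, Adipoq and Lep are the most restricted to adipocytes. Fabp4 is also made by capillary endothelium and macrophages, Lpl and Plin2 by muscle fibres, and Scd1 by many lipid-synthesising cells. In RNA of whole muscle, a change in the number of cells of a type and a change of RNA per cell cannot be told apart.

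All values are log ratios of the array channels, taken as log2, so that 1 unit is a 2-fold difference. The base is not given in the sources used here. The level of a mouse is its log2 ratio to the 1-week mouse of the same loop, from a least squares fit to the 9 arrays of that loop. In this fit the closing array carries 88.9% of the weight of the 20-week level and each other array 11.1%. An error in the 1-week mouse shifts all later levels of a loop together, so the later mice of a loop are not independent. A log2 ratio gives no level of one gene against another. The direction of the ratios (Cy5 over Cy3) is likely rather than stated: with it, Dlk1, a gene of the fetal and newborn muscle, fell by 3.05 on the log2 scale in BSG between 1 and 20 weeks and fell by 3.54 in GSG. Averages over the 2 mice of an age, with their standard errors (SE), and all moderated tests come from a limma fit over all 36 arrays. The SE uses 1 residual spread per gene, shared by both strains and all ages. It is not the spread of the 2 mice of an age. Array errors are taken as independent, though neighbouring arrays share a mouse. A gene was called where its Benjamini-Hochberg adjusted p over the 8129 oligonucleotides was below 0.05.

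Promoter windows of RefSeq (build GRCm38.p6, 250 bases before to 50 after the start) were held for 5 of the 8 genes, Adipoq, Lep, Pparg, Cebpa and Plin2, in 7 windows. They were searched on both strands for the hexamer AGGTCA of nuclear receptors, for DR1 (2 such hexamers in direct repeat with 1 base between them), for the C/EBP palindrome TTGCGCAA, for CCAAT, for TATAAA and for the E-box CACGTG. The 250 bases before the start are shown for Adipoq, the gene that came nearest to the threshold of the tests below, and for Lep, the only 1 of the 7 windows with the C/EBP palindrome. Capitals mark the matches.
Adipoq, chr16:23146286-23146535, + strand: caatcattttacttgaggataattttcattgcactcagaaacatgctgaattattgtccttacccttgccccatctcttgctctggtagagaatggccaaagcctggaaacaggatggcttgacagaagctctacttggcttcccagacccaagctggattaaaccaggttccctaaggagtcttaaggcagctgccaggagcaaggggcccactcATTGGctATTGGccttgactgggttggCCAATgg
Lep, chr6:29059971-29060220, + strand: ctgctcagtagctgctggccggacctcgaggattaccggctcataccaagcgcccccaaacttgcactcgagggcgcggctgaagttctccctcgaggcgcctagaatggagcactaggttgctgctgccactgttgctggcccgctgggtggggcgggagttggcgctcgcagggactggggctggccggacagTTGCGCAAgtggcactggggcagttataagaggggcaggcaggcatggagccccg
Adipoq held CCAAT 3 times, of which 2 lie on the opposite strand, within 34 bases of the start. CCAAT was also in 2 of the 3 Pparg windows and in the Plin2 window, and it occurs in 37.4% of the 32851 windows of the table. Lep held the C/EBP palindrome from base -55 to base -48, a match found in 0.183% of all windows. DR1 was in 0 of the 7 windows and in 0.0396% of all. The hexamer AGGTCA, present in 16.3% of all windows, was in 2 of the 3 Pparg windows and in the Plin2 window. TATAAA, in 13.6% of all, was in the Cebpa window and in 1 Pparg window, and the E-box, in 7.15% of all, was in the Plin2 window, across the start. A match is a description of letters, and none was related to the measured levels.

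None of the 8 genes changed by this criterion between 1 and 20 weeks in either strain. The background was 1.28% of all oligonucleotides called in BSG (104 of 8129) and 3.74% in GSG (304 of 8129). Adipoq in BSG came nearest, with an adjusted p of 0.0625 in limma. In BSG the estimates of 6 genes lay above 0 and the median of the 8 was 0.35, beside a median of -0.02 over all oligonucleotides, of which 46.8% lay above 0. In GSG 5 estimates lay above 0 and the median was 0.08, beside -0.01 over all oligonucleotides. At an unadjusted p below 0.05 stood 2 genes in BSG, Adipoq and Pparg, where 11.6% of all oligonucleotides did, and 0 in GSG, where 14.7% did.

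**Figure D1:**
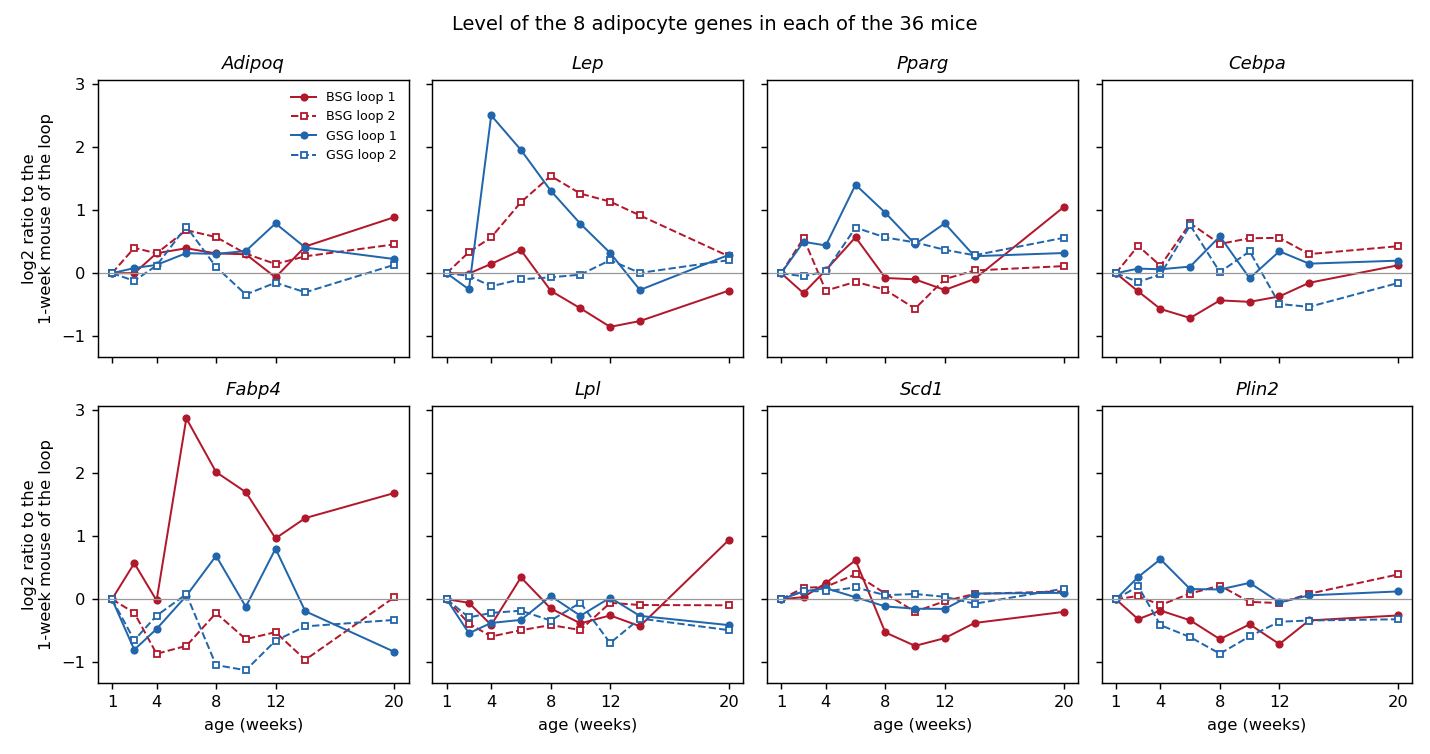
Level of each of the 8 adipocyte genes (log2 ratio to the 1-week mouse of the same loop) against age in weeks, with 1 line per loop of 9 mice and filled circles for loop 1, open squares for loop 2. With duplicate spots averaged, Adipoq lay above 1 week in 15 of 16 later BSG mice, whereas Fabp4 and Lep reached their highest levels, 2.86 and 2.50, in 1 loop only.

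The secreted proteins were followed first. Adiponectin is the most abundant hormone of the adipocyte. In BSG loop 1 the Adipoq level was 0.32, 0.39, 0.31 and 0.30 at 4, 6, 8 and 10 weeks, -0.07 at 12 weeks, 0.42 at 14 weeks and 0.89 at 20 weeks. At 2.5 weeks it was 0.000605, which counts as above 1 week though it is next to 0. In BSG loop 2 it was 0.40, 0.31, 0.68, 0.57, 0.31, 0.15, 0.27 and 0.46 from 2.5 to 20 weeks. Thus, with the spots averaged, 15 of 16 later BSG mice were above the 1-week mouse of their loop, and both mice were above it at 7 of 8 later ages. The duplicate spots differed here: 16 of 16 were above it from the first spots alone and 11 of 16 from the second. Of all oligonucleotides, 4.48% had at least 15 of 16 later BSG mice above 1 week. At 20 weeks the average was 0.67 ± 0.18 (SE, n = 2), a 1.59-fold higher level, with a 95% interval of 0.31 to 1.04 that is not adjusted for the number of genes (limma, adjusted p = 0.0625, place 115 of the 8129 oligonucleotides by p). The closing arrays of BSG read -0.85 and -0.60 for 1 week over 20 weeks. The spots were alike in loop 1 (-0.90 and -0.79) and unlike in loop 2 (-1.06 and -0.14), where the 20-week level was 0.87 from the first spots and 0.04 from the second. Under the 15 other settings tried, the estimate lay between 0.45 and 0.90 and the limma adjusted p between 0.0133 and 1.00. The adjusted p passed the threshold in 4 of them, which are given under the dependence on processing. Without BSG loop 1 it was 1.00, and with the second spots alone the estimate was 0.45 (limma adjusted p = 0.470). The F test of limma over the 8 later ages gave an adjusted p of 0.859 for Adipoq in BSG.

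In GSG, Adipoq was less regular. In loop 1 the level was 0.08, 0.13, 0.32, 0.31, 0.35, 0.79, 0.41 and 0.22 from 2.5 to 20 weeks, above 1 week in all 8 mice. In loop 2 it was -0.12, 0.12, 0.74, 0.10, -0.34, -0.15, -0.30 and 0.13, above 1 week in 4 of 8 mice. The loops therefore went apart from 10 weeks on and met again at 20 weeks, where the average was 0.18 ± 0.18 (SE, n = 2, adjusted p = 0.772 in limma). The difference between the strains in this change was 0.49 ± 0.25 (BSG minus GSG, 95% interval -0.03 to 1.01, limma adjusted p = 0.729). Ordered by the average, the ages ran 20, 6, 8, 14, 4, 10, 2.5, 12 and 1 weeks in BSG and 6, 12, 8, 20, 4, 14, 10, 1 and 2.5 weeks in GSG. No neighbours in this order differed by more than 0.573 SE of their difference in BSG or 0.782 SE in GSG.

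Leptin signals the size of fat stores to the brain. The Lep level in BSG rested on the loop: it was above 1 week in 8 of 8 mice of loop 2, with a highest level of 1.54 at 8 weeks, and in 2 of 8 mice of loop 1, with a lowest level of -0.85 at 12 weeks. Averaged at 20 weeks, it was at -0.0045 ± 0.42 (SE, n = 2) in BSG and 0.25 ± 0.42 in GSG. In GSG loop 1 the levels were -0.26, 2.50, 1.95, 1.31, 0.78, 0.32, -0.27 and 0.29 from 2.5 to 20 weeks, and in GSG loop 2 they lay between -0.21 and 0.21. In BSG loop 2 the level at 8 weeks was 1.69 from the first spots and 1.39 from the second, and at 10 weeks 1.81 and 0.71. The duplicate spots did not share the high levels of GSG loop 1. On the array of 4 over 2.5 weeks in GSG loop 1 the first spot of Lep read 6.48 and the second -0.03. From the second spots alone, the GSG loop 1 level was 0.13 at 4 weeks and 0.13 at 6 weeks, against 4.87 and 3.77 from the first spots. On the array of 20 over 14 weeks of the same loop the spots read 2.23 and -0.17. Over the 36 arrays the duplicate spots of Lep correlated with r = 0.17, beside a median of 0.32 over all oligonucleotides.

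The transcription factors came next. Pparg encodes the nuclear receptor of fat cell differentiation. It was at 0.50, 0.44, 1.40, 0.96, 0.46, 0.79, 0.27 and 0.32 from 2.5 to 20 weeks in GSG loop 1. In GSG loop 2 it was at -0.05, 0.03, 0.72, 0.57, 0.49, 0.37, 0.28 and 0.56. Thus 15 of 16 later GSG mice were above 1 week (14 of 16 from the first or the second spots alone), beside 5.84% of all oligonucleotides with at least 15. With the spots averaged, both loops were highest at 6 weeks. From the second spots alone, loop 2 was at 0.62 at 6 weeks and highest at 8 weeks (1.05). Its array of 8 over 6 weeks read -0.73 in the first spot and 0.52 in the second. The average at 6 weeks was 1.06 and at 20 weeks 0.44 ± 0.26 (SE, n = 2, adjusted p = 0.4998 in limma). The F test of limma over the ages in GSG gave an adjusted p of 0.772.

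In BSG, 6 of 16 later mice had a Pparg level above 1 week. The levels were -0.32, 0.05, 0.57, -0.08, -0.10, -0.27, -0.09 and 1.05 in loop 1 and 0.55, -0.28, -0.14, -0.26, -0.56, -0.09, 0.04 and 0.11 in loop 2. The 20-week mouse of loop 1 thus stood apart from the 14-week mouse before it, and both spots of the array between them read alike, 1.21 and 1.17. The average at 20 weeks was 0.58 ± 0.26 (SE, n = 2, limma adjusted p = 0.387). Without BSG loop 2 the estimate was 1.05, and without BSG loop 1 it was 0.11, each with 1 mouse per age left in BSG. These were also the highest and the lowest estimate under the alternatives. The change from 1 to 20 weeks differed between the strains by 0.14 ± 0.37 (BSG minus GSG, 95% interval -0.63 to 0.90).

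Cebpa, which acts with Pparg in the differentiation of fat cells, split by loop in BSG. All 8 later mice of loop 2 were above 1 week, between 0.12 and 0.79, and 7 of 8 of loop 1 were below it, down to -0.71 at 6 weeks. The spots differed in this depth: the 6-week level of loop 1 was -1.19 from the first spots and -0.23 from the second. The 20-week mice were at 0.13 and 0.43. The average at 20 weeks was 0.28 ± 0.29 in BSG and 0.02 ± 0.29 in GSG (SE, n = 2 each, limma adjusted p = 0.889 and 0.997). In GSG the levels ran from -0.53 to 0.76, with 10 of 16 mice above 1 week.

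Among the genes of lipid handling, Fabp4 encodes a fatty acid binding protein of the adipocyte cytoplasm. Its residual SD, the spread that the ages do not account for, was 0.82 and stood at percentile 98.8 of all oligonucleotides. The levels in BSG loop 1 were 0.57, -0.02, 2.86, 2.01, 1.70, 0.96, 1.29 and 1.68 from 2.5 to 20 weeks. In BSG loop 2 they were -0.22, -0.86, -0.74, -0.22, -0.63, -0.52, -0.96 and 0.03. From 6 weeks on, the lowest mouse of loop 1 was at 0.96 and the highest of loop 2 at 0.03. The levels of a loop share its arrays, so these ages are not separate observations. The share of all oligonucleotides with such a gap between the loops was not counted. The step of loop 1 lay on the array of 6 over 4 weeks, whose log2 ratio was 3.26, with 3.29 and 3.22 in its 2 spots. Over all 36 arrays the spots of Fabp4 correlated with r = 0.98, the highest of the 8 genes, so the step was read by both spots.

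In GSG the Fabp4 level was below 1 week in 12 of 16 later mice. Loop 1 ranged from -0.83 at 20 weeks to 0.80 at 12 weeks and loop 2 from -1.12 at 10 weeks to 0.08 at 6 weeks. The change between 1 and 20 weeks was 0.86 ± 0.50 in BSG (SE, n = 2, limma adjusted p = 0.557) and -0.58 ± 0.50 in GSG (adjusted p = 0.709). BSG minus GSG was 1.44 ± 0.71, with a 95% interval of -0.02 to 2.90 (limma adjusted p = 0.7004), and it was 0.61 without BSG loop 1 and 2.26 without BSG loop 2. Without BSG loop 1 the BSG estimate was 0.03, and without BSG loop 2 it was 1.68, so that 1 loop decided it. The sum of the 9 log2 ratios round a loop, which is 0 without error, was 3.36, 2.06, 2.06 and 2.88 for Fabp4 in the 2 BSG and the 2 GSG loops. In BSG loop 1 its size stood at percentile 97.7 of all oligonucleotides. The loops without such a step did not close either, so the sum does not tell whether the step (3.26) is an error of its array. This was not tested. The sums had 1 sign in all loops, as for 49.96% of all oligonucleotides, and a constant difference between the dyes cancels in the levels.

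**Figure D2:**
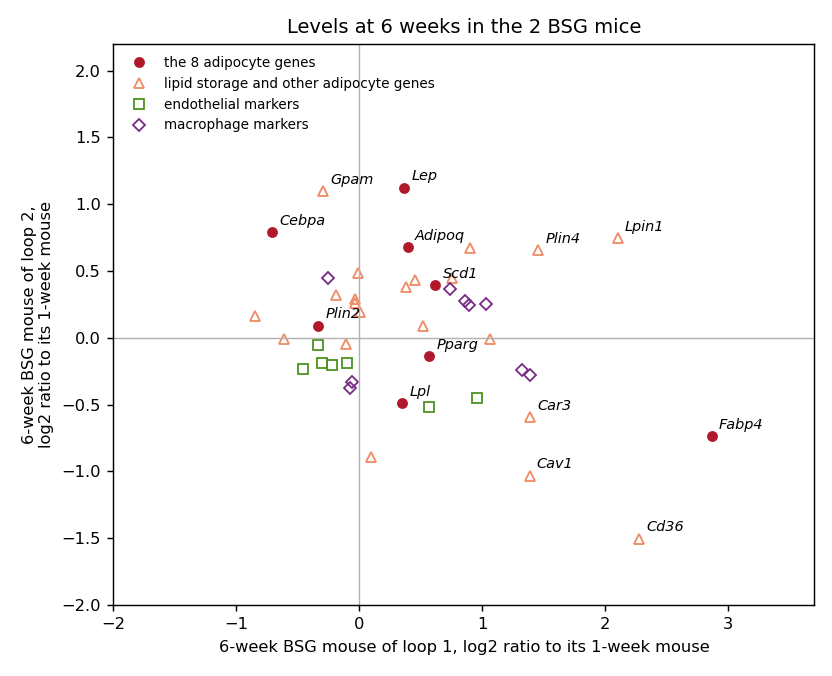
Level at 6 weeks (log2 ratio to the 1-week mouse of the loop) in the BSG mouse of loop 1, on the x axis, and of loop 2, on the y axis, with 1 point per gene for the 8 adipocyte genes, the other adipocyte genes, and endothelial and macrophage markers. Fabp4 (2.86 and -0.74), Cd36 (2.27 and -1.504) and Cav1 (1.38 and -1.03) lie at the lower right, high in the first mouse and low in the second.

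The 6-week BSG mouse of loop 1 was therefore read for the other genes of the lists, a choice made after its Fabp4 level was seen. Of the 8129 oligonucleotides, 3 were above Fabp4 there. Of 21 other genes of lipid storage and adipocytes, 6 were above 1 in this mouse and 1 in its partner of loop 2, where over all oligonucleotides 5.97% and 0.812% were. The 6 were Cd36, a fatty acid transporter (2.27), Lpin1, a phosphatidate phosphatase (2.10), Plin4, a lipid droplet protein (1.46), Car3, a carbonic anhydrase of muscle and fat (1.39), Cav1, the caveolar coat protein (1.38), and Rbp4, the retinol carrier (1.06). The same genes were at -1.504, 0.74, 0.66, -0.60, -1.03 and -0.01 in the 6-week mouse of loop 2. Adipoq was at 0.39 and 0.68 in these mice and did not share the difference. Of the 21 genes, 13 were above 0 in loop 1. Among the rest were Cidec, a lipid droplet protein of fat cells (-0.01, and 0.49 in loop 2), Sfrp5 (-0.61) and Agt (-0.85). Genes of other lists were also above 1 in the mouse of loop 1, among them Dcn of fibroblasts (1.61), Me1 of fatty acid synthesis (1.57), the regulator Klf4 (1.52) and Ckm of muscle fibres (1.26). Of 7 endothelial markers, Tek (0.96) and Kdr (0.57) were above 0 in loop 1 and 5 were below it, Pecam1 and Cdh5 among them (-0.22 and -0.31). Of 9 macrophage markers 6 were above 0 and 3 above 1 in loop 1, where their median was 0.86. In loop 2, 0 were above 1 and the median was 0.25. The part of these cell types in the Fabp4 level was not tested. Over the 36 mice, levels centred within each loop, the 21 genes of lipid storage and adipocytes correlated with Fabp4 with a median r of 0.38, beside a median of -0.04 over all oligonucleotides. They ran from -0.51 for Lepr, the leptin receptor, to 0.69 for Rbp4, with Cav1 at 0.67 and Cd36 at 0.61. Over the 36 mice, markers of other cells reached similar values, Dcn of fibroblasts 0.64 and Tek of endothelium 0.61. The medians of their lists were 0.04 and -0.02. Over all mice without BSG loop 1, r was 0.34 for Dcn and 0.45 for Tek. It was 0.53 for Rbp4, 0.63 for Cav1, 0.58 for Cd36 and -0.65 for Lepr. The mice of a loop share arrays, and no p is given.

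Lpl encodes lipoprotein lipase, which frees fatty acids from circulating lipoproteins. Its level was below 1 week in 14 of 16 later mice in each strain, beside 13.1% of all oligonucleotides in BSG and 15.1% in GSG with at least 14 below. From the second spots alone, 4 of 16 were above 1 week in each strain. In BSG loop 1 it was -0.06, -0.41, 0.35, -0.14, -0.38, -0.26, -0.43 and 0.94, so that the 20-week mouse was the highest, as for Pparg. In BSG loop 2 all levels were between -0.59 and -0.06, and in GSG they lay between -0.69 and 0.05. The array of 20 over 14 weeks in BSG loop 1 read 1.45 and 1.67 in its spots. The change between 1 and 20 weeks was 0.42 ± 0.30 in BSG and -0.45 ± 0.30 in GSG (SE, n = 2 each, limma adjusted p = 0.698 and 0.574). BSG minus GSG was 0.87 ± 0.43, with a 95% interval of -0.0023 to 1.75 (limma adjusted p = 0.698), and it was 0.35 without BSG loop 1 and 1.39 without BSG loop 2. Without BSG loop 1 the change in BSG was -0.10.

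Scd1, the desaturase that makes oleate, and Plin2, a coat protein of lipid droplets in many cells, were not called in either strain. With the spots averaged, Scd1 was between -0.15 and 0.19 in all 16 later GSG mice. The spots differed: at 12 weeks in GSG loop 1 the level was 0.33 from the first spots and -0.63 from the second. In GSG, 12 of 16 mice were above 1 week from the first spots and 7 of 16 from the second. In BSG loop 1 it was at 0.62 at 6 weeks and at -0.53 at 8 weeks. This step also rested on a spot, since the array of 8 over 6 weeks read -2.53 and -0.33. From the second spots alone the 8-week level was 0.48. Scd1 had the lowest correlation of duplicate spots of the 8 genes (r = 0.051), and Plin2 was at 0.12. Plin2 ranged from -0.71 to 0.39 in BSG and from -0.86 to 0.63 in GSG, with 5 and 8 of 16 later mice above 1 week. From the first and the second spots alone, 3 and 10 of 16 were above it in BSG and 8 and 5 in GSG. The lowest levels were -1.13 and -0.29 by spot in BSG (loop 1, 12 weeks) and -1.35 and -0.37 in GSG (loop 2, 8 weeks). At 20 weeks Scd1 averaged -0.04 ± 0.20 in BSG and 0.13 ± 0.20 in GSG, and Plin2 0.07 ± 0.22 and -0.10 ± 0.22 (SE, n = 2 each).

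**Figure D3:**
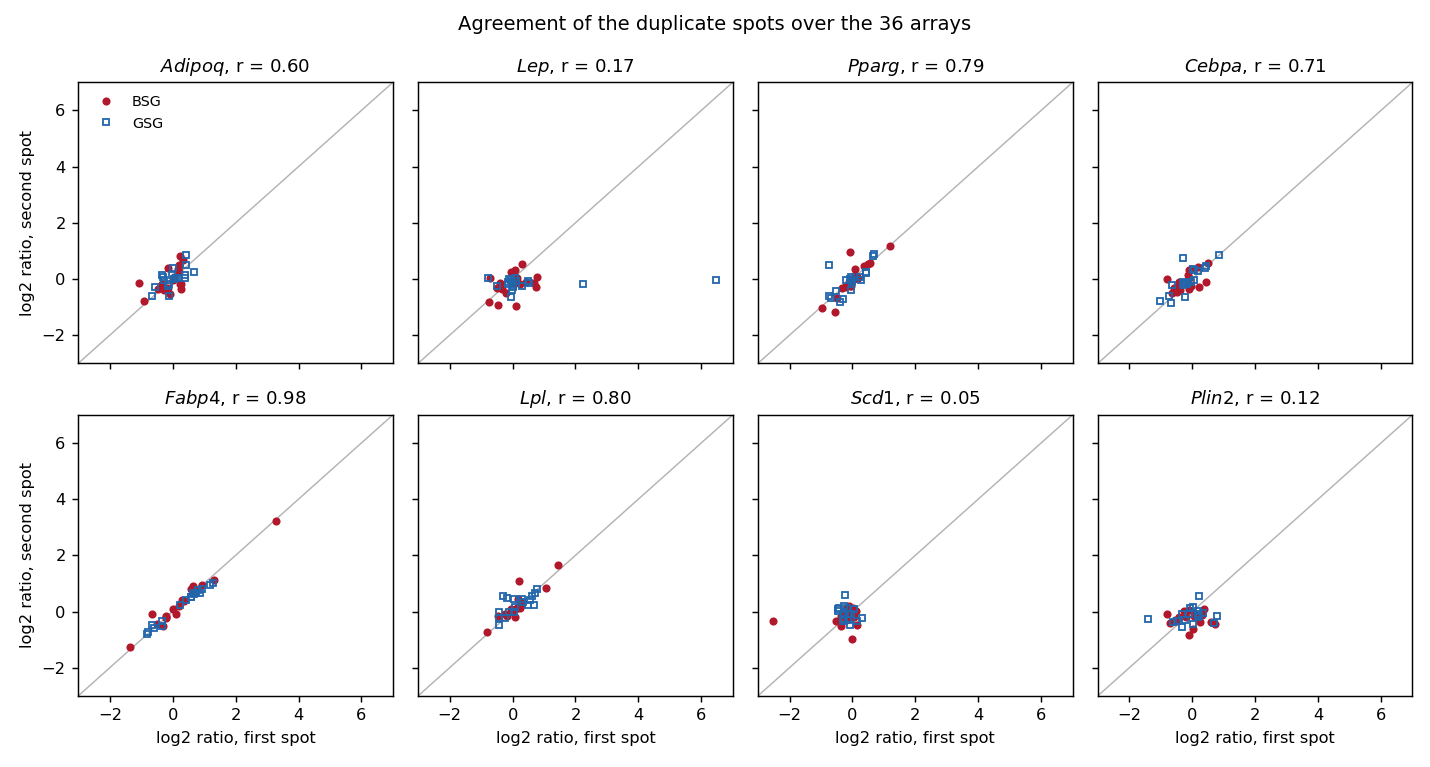
Log2 ratio of the second against the first duplicate spot on the 36 arrays for each of the 8 adipocyte genes, with Pearson's r in the panel titles, filled circles for BSG and open squares for GSG, and the line of equal values. Fabp4 follows the line (r = 0.98) and Lep (r = 0.17) has 2 points, at 6.48 and 2.23 on the first spot, that the second spot does not share.

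**Figure D4:**
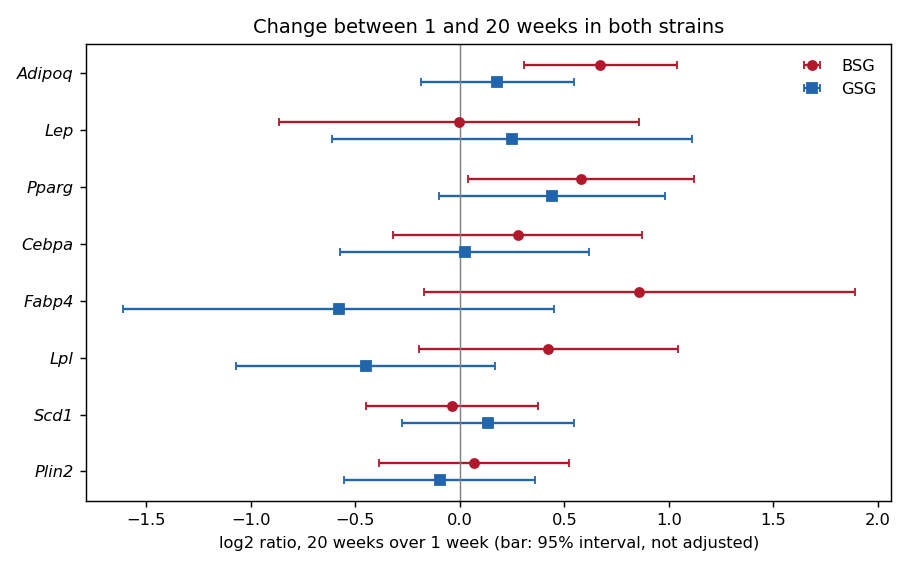
Change between 1 and 20 weeks (log2 ratio, 20 over 1 week) with its 95% interval, not adjusted for the number of genes, from the limma fit for the 8 adipocyte genes in BSG (circles) and GSG (squares). In BSG the intervals of Adipoq (0.31 to 1.04) and Pparg (0.04 to 1.12) lie above 0, and in GSG each of the 8 intervals includes 0.

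The late ages (10, 12, 14 and 20 weeks) were next set against the early ages (1, 2.5 and 4 weeks). None of the 8 genes was called in BSG, where 0% of all oligonucleotides were (0 of 8129 in limma, and 314 at an unadjusted p below 0.05), or in GSG, where 0.135% were (11 of 8129). The estimates ran from -0.36 ± 0.22 for Scd1 to 0.53 ± 0.55 for Fabp4 in BSG and from -0.28 ± 0.24 for Plin2 to 0.29 ± 0.29 for Pparg in GSG (SE, 8 late and 6 early mice per strain). In BSG the Scd1 estimate was -0.13 without loop 1 and -0.58 without loop 2, and that of Fabp4 was -0.16 and 1.22. For a change at any of the 8 later ages, the F test called 0 of the 8 genes in BSG, where 0.0984% of all oligonucleotides were called, and 0 in GSG, where 0.59% were. Their smallest adjusted p was 0.859 in BSG, for Adipoq, and 0.772 in GSG, for Pparg.

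The age of the highest average was 20 weeks for 5 of the 8 genes in BSG, namely Adipoq, Pparg, Cebpa, Lpl and Plin2, and 6 weeks for the other 3, namely Lep, Fabp4 and Scd1. Of all oligonucleotides in BSG, 11.7% were highest at 20 weeks and 8.48% at 6 weeks. None of the 5 was highest at 20 weeks in both BSG loops. In loop 2, Adipoq was highest at 6 weeks (0.68, with 0.46 at 20 weeks), as was Cebpa (0.79, with 0.43). Pparg was highest there at 2.5 weeks (0.55, with 0.11 at 20 weeks). All later levels of Lpl in loop 2 and of Plin2 in loop 1 were below 1 week. The 5 genes were read in the same mice. In GSG, 0 of the 8 genes were highest at 20 weeks. There Adipoq, Pparg and Cebpa had their highest average at 6 weeks, as 11.4% of all oligonucleotides did, Lep and Scd1 at 4 weeks, Fabp4 at 12 weeks, Plin2 at 2.5 weeks and Lpl at 1 week. These ages are a description of averages of 2 mice, and the F tests over the ages called none of the 8.

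The courses of the strains were compared by the temporal Hotelling test, which sets the coefficients of a quadratic in the time point number against each other. It called 0 of the 8 genes and 0% of all oligonucleotides (0 of 8129, 358 at an unadjusted p below 0.05, and 0 members by a moderated F test of limma on the same coefficients). Lpl had the smallest p of the 8, 0.114 (adjusted p = 1.00), followed by Fabp4 with 0.237. In limma, the change from 1 to 20 weeks differed between the strains for 0 of the 8 genes and 0% of all oligonucleotides (586 of 8129 at an unadjusted p below 0.05). The difference between the strains in late against early ages was called for 0 of the 8 and 0% of all (148 at an unadjusted p below 0.05), and the smallest p of the 8 was 0.380. With 2 mice per age and strain the 95% interval of BSG minus GSG at 20 weeks against 1 week was wide, running from -1.47 to 0.96 for Lep and from -0.02 to 2.90 for Fabp4.

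The 8 genes were also correlated with each other. Over the 36 mice, with levels centred within each loop, 19 of 28 pairs correlated above 0, with a median r of 0.18 and a range from -0.14 to 0.52. No share over all pairs of oligonucleotides was computed to set beside these values. The highest were Adipoq with Cebpa (r = 0.52), Adipoq with Pparg (0.47), Pparg with Lpl (0.44), Adipoq with Fabp4 (0.44) and Fabp4 with Lpl (0.44). Adipoq with Cebpa was at 0.41 in BSG and 0.60 in GSG, 18 mice each. Adipoq with Pparg was at 0.29 over all mice without BSG loop 1. Pparg with Lpl was at 0.74 in BSG and -0.05 in GSG, and at 0.08 over all mice without BSG loop 1. Lep, Scd1 and Plin2, the genes whose duplicate spots disagreed, had none above that of Scd1 with Plin2 (0.31). These correlations are descriptions without p, since neighbouring ages share an array.

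**Figure D5:**
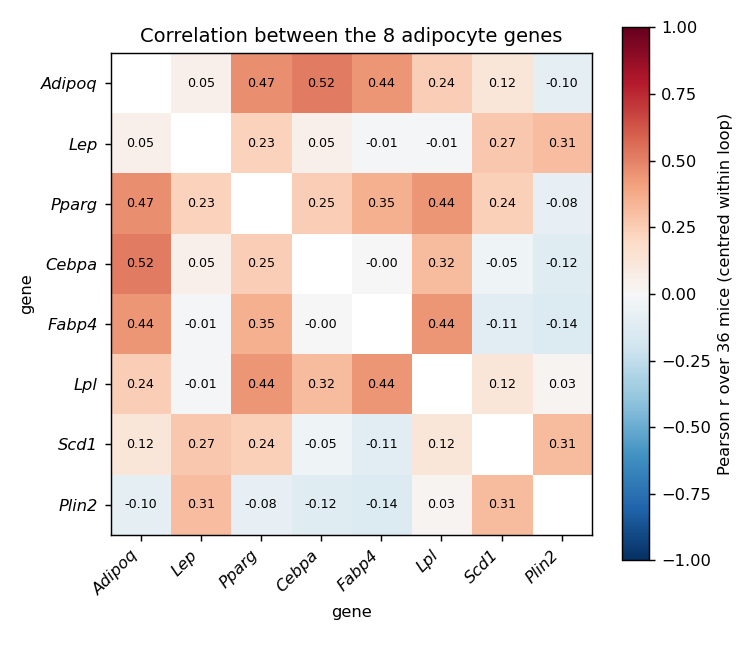
Pearson's r between the levels of the 8 adipocyte genes over 36 mice, centred within each loop, with 1 cell per pair of genes and colour from -1 (blue) to 1 (red). Adipoq has its highest values with Cebpa (0.52), Pparg (0.47) and Fabp4 (0.44), and the lowest value of all pairs is that of Fabp4 with Plin2 (-0.14).

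Among the 6744 other oligonucleotides with 1 gene symbol, the levels most like those of Adipoq over the 36 mice were those of Pcx, pyruvate carboxylase (r = 0.78), Olfr70, an olfactory receptor gene (0.75), Serpina3n, a serine protease inhibitor (0.74), Slc1a5, a neutral amino acid transporter (0.73), and Orm1, the plasma protein orosomucoid (0.72). The median r with Adipoq was -0.01 over these oligonucleotides. Cebpa, Pparg and Fabp4, the adipocyte genes most like Adipoq, stood at percentiles 99.4, 98.9 and 98.7. The others were at r = 0.24 (Lpl), 0.12 (Scd1), 0.05 (Lep) and -0.10 (Plin2), and their percentiles were not computed. Of the 5, Orm1 rose between 1 and 20 weeks in BSG, by 1.73 ± 0.39 (SE, n = 2, adjusted p = 0.0237 in limma), and in GSG it was at 0.92 ± 0.39 (adjusted p = 0.227). The other 4 were not called in either strain.

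Other genes of the adipocyte and of its precursors were read from lists. Of 21 measured genes of lipid storage and adipocytes, 0 were called between 1 and 20 weeks in BSG, and 1 rose and 1 fell in GSG, with medians of 0.09 and 0.02. Lpin1 rose in GSG by 1.299 ± 0.29 (adjusted p = 0.0102 in limma) and was at 1.06 ± 0.29 in BSG (adjusted p = 0.0783). Mgll, the monoglyceride lipase, fell by 0.58 on the log2 scale in GSG (adjusted p = 0.0493). Cav1 was at -1.12 ± 0.37 in GSG (adjusted p = 0.102). Of 9 genes of fatty acid synthesis, Me1, the malic enzyme that supplies NADPH, rose in GSG by 1.03 ± 0.25 (adjusted p = 0.0184), with 0.90 ± 0.25 in BSG (adjusted p = 0.0805), and the other 8 were not called. Of 5 genes of brown adipocytes, 0 were called in either strain.

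Among 19 regulators of fat cell differentiation, 1 fell in BSG, and 1 rose and 1 fell in GSG. The gene that fell in both was Dlk1, whose protein inhibits adipogenesis and which is also a gene of newborn muscle (adjusted p = 1.68e-08 in BSG and 6.25e-10 in GSG). Nr1h3, which encodes the liver X receptor alpha, rose in GSG by 1.26 ± 0.25 (adjusted p = 0.00385) and was at 0.88 ± 0.25 in BSG (adjusted p = 0.0863). Cebpb was at 1.00 ± 0.31 in GSG (adjusted p = 0.0693) and 0.66 ± 0.31 in BSG (adjusted p = 0.408). All of these tests are limma's, over all oligonucleotides.

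Markers of other cells in the muscle moved as follows. Of 9 macrophage markers, 4 rose between 1 and 20 weeks in GSG, namely Mpeg1 (2.09 ± 0.44), Cd68 (1.45 ± 0.37), Lgals3 (1.98 ± 0.51) and Ctss (1.55 ± 0.43), and 0 were called in BSG, with medians of 1.05 and 0.73. Their mean level over the later mice had a median of 0.74 and 0.37 in the BSG loops and 0.61 and 0.79 in the GSG loops. Of 7 endothelial markers, 0 were called in either strain, with medians of -0.39 in BSG and -0.62 in GSG. Of 4 markers of fibroblasts and fibro-adipogenic progenitors, Col1a1, a chain of collagen I, fell by 1.66 on the log2 scale in BSG and fell by 2.13 in GSG (limma adjusted p = 0.0237 and 0.000998). The other 3 were not called, among them Col3a1, a chain of collagen III (0.58 and 1.02), and Dcn (0.63 and -0.18), and the medians of the list were 0.32 and -0.19. Of 7 markers of skeletal muscle fibres, 0 were called, with medians of 0.19 and 0.37. Of 8 measured genes of newborn muscle, 4 fell in each strain, among them Dlk1, Meg3 and Mest. The part of these cell types in the levels of the adipocyte genes was not tested.

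The arrays differed in precision. The correlation of the duplicate spots over all oligonucleotides had a median of 0.32 and 0.58 in the BSG loops 1 and 2 and of 0.36 and 0.65 in the GSG loops, and it was below 0.3 on 9 arrays, 4 of BSG loop 1, 4 of GSG loop 1 and 1 of GSG loop 2. The 4 of BSG loop 1 were the arrays that link 6 to 14 weeks, so levels of loop 1 at 8 to 14 weeks lean on arrays of low agreement. The array with the Fabp4 step was not among them. Without the 9 arrays, 0 of the 8 genes were called in any comparison.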

How the data were processed

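The values are the deposited log2 ratios of the 2 channels of each array, made by the authors from GenePix scans with normalization by the smida package for spatial, dye and array effects. The base of the logarithm and the direction are not stated in the sources used here. Log2 and Cy5 over Cy3 were taken, of which the direction is likely from Dlk1 and other genes of newborn muscle. The 16416 spots hold 8208 duplicate pairs, which were averaged, and the 80 Gapdh control pairs were taken as 1, which left 8129 oligonucleotides (6752 with 1 gene symbol, 7 with several, 1370 with none). There were 0 missing values, and no filter or further normalization was applied. The number of arrays limits the precision.

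The 8 later ages of each strain were fitted against 1 week over the 36 arrays with limma (version 3.58.1, R 4.3.3; lmFit and eBayes, 20 residual degrees of freedom), and p-values were Benjamini-Hochberg adjusted over 8129 oligonucleotides at 0.05. The temporal Hotelling test (3 and 30 degrees of freedom) follows the equations of the study. It did not recover the study's own calls. The study lists genes below 0.05 between BSG and GSG in this test, Matn2 and Dpp4 among them. Here 0 of 8129 oligonucleotides were called between these strains, and the reason was not tested. Scripts were tested on simulated data. Plots used matplotlib 3.10.9 under Python 3.11.15. Alternatives covered moderation, mouse levels, dye, scaling, spots, arrays and loops. The 10 genes and the 9 other gene lists were chosen with earlier results of these data known. All measured genes of the 10 are named, and of each other list up to 3 genes by the smallest adjusted p for 20 against 1 week, with the 5 oligonucleotides most correlated with Adipoq. Other genes were named after their values were seen. The p-values of the main tests rest on the residual spread of the arrays, in which differences between mice and between arrays are not separated. Array errors were taken as independent, though neighbouring arrays share a mouse. Samples are grouped by the ages and strain in the labels, and loops come from the array titles.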

Additional observations from a re-analysis of the deposited data

How the results depend on the processing

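Of 133 counts of called adipocyte genes under alternatives, 126 were 0, as in the results above, and 7 were 1. In the change between 1 and 20 weeks in BSG, 1 gene, Adipoq, was called with a dye term per strain (limma adjusted p = 0.0433), with duplicateCorrelation over the duplicate spots (0.0133), with the first printed spot (0.90, 0.0415) and with the loop as a random block (0.0321). Over all 8129 oligonucleotides these settings called 220, 373, 47 and 190. With 1 value per mouse and the loop as a block, the same estimate had an adjusted p of 0.359. Another of the 7 was Pparg without BSG loop 2, a fit with 1 mouse per age left in BSG that is not read as a call. The Pparg estimate was 1.05 there and 0.11 without BSG loop 1. In late against early ages in BSG, 1 was called with 1 value per mouse (Scd1, adjusted p = 0.0457), a fit whose values within a loop share arrays and which called 317 of all oligonucleotides, beside 0. The F test in BSG called 1 with duplicateCorrelation over the spots (Fabp4, adjusted p = 0.0177), where 188 of all were called, beside 8. The cause was not tested. Leaving out a loop leaves 1 mouse per age in that strain, which is assumed to vary like the others.

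Some estimates turned sign, each uncalled. In BSG, Lep was 0.0167 with arrays centred on their median, 0.00087 with arrays set to 1 spread, 0.11 with the second spot and 0.0486 without the 9 arrays of low duplicate correlation. Scd1 was 0.0303 with the second spot and 0.0769 without those arrays, and Plin2 was -0.0148 with the first spot. In GSG, Cebpa was -0.0125 with arrays set to 1 spread and -0.29 with the second spot. The strain difference (BSG minus GSG) was -0.13 for Cebpa and -0.0108 for Plin2 with the first spot and 0.0740 for Lep with the second. Leaving out 1 loop at a time, the change from 1 to 20 weeks in BSG ranged from -0.27 to 0.27 for Lep, -0.10 to 0.94 for Lpl, -0.20 to 0.12 for Scd1 and -0.26 to 0.39 for Plin2. In GSG it ranged from -0.15 to 0.20 for Cebpa and -0.32 to 0.12 for Plin2. The strain difference ranged from -0.52 to 0.0162 for Lep, -0.33 to 0.61 for Pparg and -0.16 to 0.49 for Plin2, and late against early ages in BSG from -0.16 to 1.22 for Fabp4.

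Over all oligonucleotides the number called between 1 and 20 weeks ranged from 1 (without BSG loop 1) to 373 (duplicateCorrelation over spots) in BSG, beside 104, and from 83 (without GSG loop 2) to 471 in GSG, beside 304. For late against early ages it ranged from 0 to 317 in BSG, beside 0, and from 1 to 704 in GSG, beside 11. For the F test it ranged from 1 to 188 in BSG, beside 8, and from 12 to 335 in GSG, beside 48. Between the strains it was 0, and at most 127 for 20 against 1 week, 28 for late against early ages and 75 for the temporal Hotelling test. No paired analysis was possible because the loop numbers do not pair mice between the strains.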
